A study of Mus musculus with 16 samples.

Results

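The 10 genes described here move fatty acids into cells or carry them inside cells: the membrane fatty acid translocase Cd36, the fatty acid transport proteins Slc27a1, Slc27a2, Slc27a4 and Slc27a5, the cytosolic fatty acid binding proteins Fabp1, Fabp2 and Fabp4, the lipoprotein receptor Vldlr and lipoprotein lipase, Lpl. They were chosen by name, with earlier results of these data known, among 30142 genes measured in mouse liver. The probe set with the highest mean over the 16 arrays stands for each gene. Each of the 10 genes had 1 probe set, and all 10 were measured.

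Fatty acids reach hepatocytes from blood albumin, where adipose tissue releases them, and from triglyceride-rich lipoproteins, whose fat is freed by lipases such as Lpl. Membrane proteins such as Cd36 help them across, the Slc27 proteins couple uptake to activation with coenzyme A, and the Fabp proteins bind them in the cytosol. In liver, the nuclear receptor PPARα, encoded by Ppara, is activated by fatty acids and is known to switch on Cd36, Fabp1, Slc27a1 and other genes of fat use by binding DNA together with a retinoid X receptor.

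Livers were taken 12 h after partial hepatectomy (PHx), an operation that cuts away liver lobes and sets off regrowth, or after a sham operation without removal. The labels gave that time as falling in the period in which fat accumulates in the regrowing liver. The 4 groups were Ppara fl/fl after sham, PparaΔHep after sham, Ppara fl/fl after PHx and PparaΔHep after PHx, with 4 arrays in each. Ppara fl/fl mice carry the floxed gene and served as wild type. PparaΔHep mice lack intact Ppara in hepatocytes, while their other liver cells keep it. The sources used here do not give the Cre driver, strain, age or sex. Whether each array stands for its own mouse is likewise not stated, and p-values then cover only the array-to-array spread, some of it possibly technical. Whole liver was measured, and a smaller number of cells of one type cannot be told apart from less RNA in each of them.

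The values are log2 levels made with RMA, a method that subtracts probe background, brings arrays to a common scale and combines each set's probes into 1 value. Differences are given on that log2 scale with the standard error of limma's model. A gene passed at a Benjamini-Hochberg adjusted p below 0.05 over all 30142 genes. Levels of different genes are not compared, because each probe set has its own brightness.

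Of the 10 genes, 7 have a promoter window in the RefSeq sequences used here (mouse build GRCm38.p6, 250 bases ending just before the transcription start), and Slc27a5, Fabp4 and Lpl are not listed. PPARα with its partner is known to recognise AGGTCA repeats spaced by 1 base. The single letters AGGTCA, on either strand, were found in 3 of the 10 windows of these 7 genes (1 each of Cd36, Slc27a2 and Fabp1) and in 14.0% of all 32851 windows of that length. The repeat AGGTCANAGGTCA was in no window of these genes and in 0.0335% of all windows. The looser form AGGNCANAGGNCA was in 0.338% of all windows and, among these genes, in Fabp1 alone. Fabp2 has no match and lay nearest to Cd36 in pattern over the arrays. The windows of Slc27a1, Slc27a4 and Vldlr also hold no match and are not shown. Shown are the windows of the 3 genes with an AGGTCA match and that of Fabp2. They lie at chr6:71199629-71199878 on the plus strand for Fabp1, chr5:17835897-17836146 on the minus strand for Cd36, chr2:126552774-126553023 on the plus strand for Slc27a2 and chr3:122894822-122895071 on the plus strand for Fabp2. Capitals mark AGGTCA or the looser repeat, which all lie on the opposite strand and so read as TGACCT and its like.
Fabp1: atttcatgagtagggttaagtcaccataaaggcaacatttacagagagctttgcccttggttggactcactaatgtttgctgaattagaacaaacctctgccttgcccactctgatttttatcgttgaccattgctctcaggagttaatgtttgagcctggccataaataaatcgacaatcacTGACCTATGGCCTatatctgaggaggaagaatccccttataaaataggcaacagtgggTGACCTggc
Cd36: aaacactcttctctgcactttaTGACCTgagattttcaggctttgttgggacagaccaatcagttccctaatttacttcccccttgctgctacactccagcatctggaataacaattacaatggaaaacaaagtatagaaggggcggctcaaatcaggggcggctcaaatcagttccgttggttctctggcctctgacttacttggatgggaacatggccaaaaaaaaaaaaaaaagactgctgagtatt
Slc27a2: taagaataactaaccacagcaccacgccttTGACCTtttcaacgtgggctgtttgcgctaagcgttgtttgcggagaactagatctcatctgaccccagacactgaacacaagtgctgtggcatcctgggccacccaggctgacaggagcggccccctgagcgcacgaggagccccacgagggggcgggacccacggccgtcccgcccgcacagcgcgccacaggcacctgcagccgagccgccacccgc
Fabp2: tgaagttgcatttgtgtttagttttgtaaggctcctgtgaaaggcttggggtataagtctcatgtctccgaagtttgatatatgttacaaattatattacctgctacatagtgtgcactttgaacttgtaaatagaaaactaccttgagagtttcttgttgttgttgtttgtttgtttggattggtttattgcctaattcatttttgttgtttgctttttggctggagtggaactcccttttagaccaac
In Fabp1 the looser repeat runs from 67 to 55 bases upstream of the start and contains 1 of the 2 AGGTCA matches, while the other lies 9 to 4 bases upstream. A TATAAA motif, present in 12.4% of all windows, stands 30 to 25 bases upstream of Fabp1. In Cd36 the AGGTCA match lies 228 to 223 bases upstream and in Slc27a2 220 to 215. The Cd36 window lies inside the annotated span of the gene (chr5:17781690-17888959), before an internal start. The outer end of Cd36 has no window here and was not searched. A match describes the letters in the window and not a bound site.

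Ppara itself, the disrupted gene, had levels from 6.45 to 7.02 in sham fl/fl, 6.05 to 6.43 in sham PparaΔHep, 5.68 to 7.24 in PHx fl/fl and 4.70 to 6.26 in PHx PparaΔHep. Its probe set was lower in PparaΔHep by 0.50 ± 0.33 after sham (limma adjusted p = 0.681) and by 1.17 ± 0.33 after PHx (adjusted p = 0.326), neither of which passed. The sources used here do not say whether the probe set covers the deleted part, so these values do not check the labels. Array medians over all 72688 probe sets were 2.02 to 2.08 for sham and 2.14 to 2.22 for PHx. The median of the 23 antigenomic background probe sets was 1.24 ± 0.03 on the sham arrays and 1.01 ± 0.04 on the PHx arrays (SD, 8 arrays each), and that of the 1324 positive controls was 5.95 ± 0.09 and 5.59 ± 0.12. The median of the 558 chromosome Y probe sets was 1.81 ± 0.06 for sham and 5.19 ± 0.16 for PHx. Of 3 single Y-linked genes, Eif2s3y was at 5.08 to 5.39 for sham and 4.79 to 5.21 for PHx, Uty at 4.76 to 4.98 and 4.63 to 4.85, and Kdm5d, whose arrays did not overlap between operations, at 3.90 to 4.16 and 3.44 to 3.90. The X-linked gene Xist was at 1.35 to 1.49 for sham and 1.49 to 1.65 for PHx. Sham and PHx arrays did not overlap in the medians of all probe sets, antigenomic background, positive controls or chromosome Y probe sets. Whatever lies behind these differences cannot be told apart from the operation in this design. Their part in the PHx results was not tested. Hepatocyte markers averaged 10.7 to 10.9 on sham arrays and 10.6 to 10.8 on PHx arrays, with 3 of 11 lower after PHx in each genotype and none higher. With array medians subtracted 8 of 11 were lower in fl/fl and 9 of 11 in PparaΔHep, and under cyclic loess scaling 2 were lower and 1 higher in fl/fl. Of all genes, 20.8% passed as lower after PHx in fl/fl and 17.5% in PparaΔHep. With array medians subtracted 51.2% and 50.9% of all genes passed in either direction, 14.8% and 13.9% of those as higher. Under cyclic loess scaling 28.5% and 27% passed, 41.7% and 45.3% of those as higher.

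**Figure D1:**
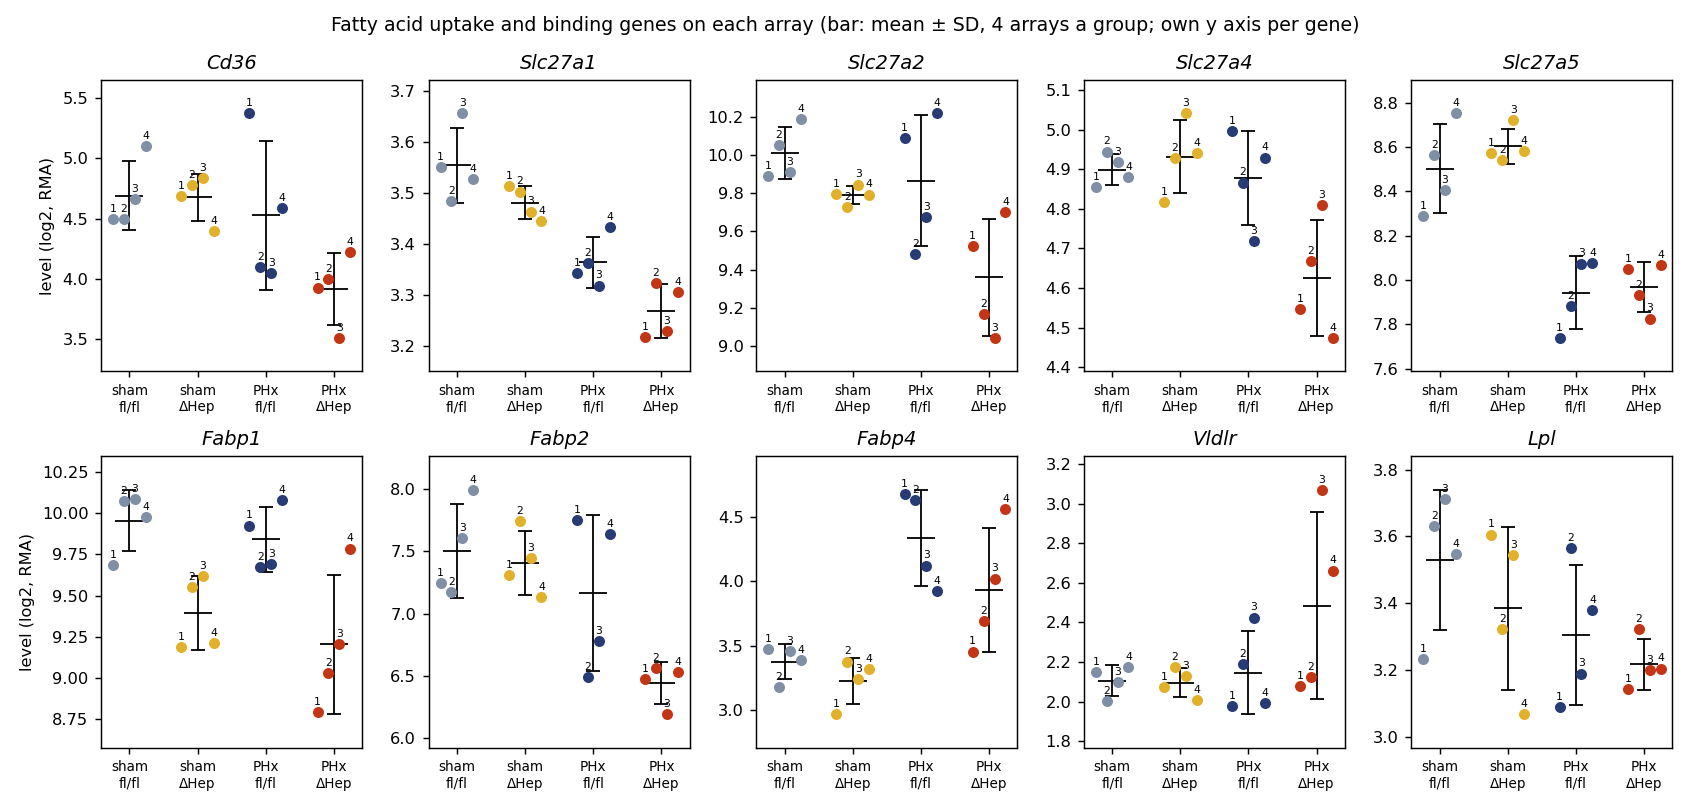
Level of each of the 10 genes (log2, RMA; own vertical axis per gene) on every array of the 4 groups, with the mean and SD of 4 arrays. Fabp1 separates by genotype on most arrays, and Slc27a5, Slc27a1 and Fabp4 separate by operation in both genotypes. The mean is lowest in PHx PparaΔHep for Cd36, Slc27a1, Slc27a2, Slc27a4, Fabp1, Fabp2 and Lpl.

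The genotype comparison asks which of these genes differ when hepatocytes lack intact Ppara. Fabp1, the main fatty acid binding protein of hepatocytes, had lower means in PparaΔHep after both operations. After sham its levels were 9.68, 10.07, 10.09 and 9.98 in fl/fl and 9.19, 9.55, 9.62 and 9.21 in PparaΔHep. The groups did not overlap, the highest PparaΔHep array lying just under the lowest fl/fl array. After PHx its levels were 9.92, 9.67, 9.69 and 10.08 in fl/fl and 8.80, 9.03, 9.21 and 9.79 in PparaΔHep. The first 3 PparaΔHep arrays lay below all fl/fl arrays, and array 4 lay among them. Fabp1 was 1.48-fold lower in PparaΔHep after sham, at -0.56 ± 0.18 (95% interval -0.94 to -0.18, unadjusted p = 0.00643, limma adjusted p = 0.422). After PHx the difference was -0.64 ± 0.18 (unadjusted p = 0.00273, limma adjusted p = 0.312). Averaged over both operations it was -0.60 ± 0.13 (unadjusted p = 2.52e-04, limma adjusted p = 0.0892). None of these passed over all genes. Without array 4 of PHx PparaΔHep the difference after PHx was -0.83 (adjusted p = 0.0303) and that over both operations -0.70 (adjusted p = 0.00418), and both then passed. With arrays weighted by their quality the difference over both operations was -0.63 and passed (adjusted p = 0.0234). The order of the 4 means was sham fl/fl (9.96 ± 0.19), PHx fl/fl (9.84 ± 0.20), sham PparaΔHep (9.39 ± 0.22) and PHx PparaΔHep (9.21 ± 0.42), and the operation did not separate either genotype beyond its spread.

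After sham, 0 of the 10 genes passed between genotypes by limma, against 0.0133% of all genes. At an unadjusted p below 0.05 the count was 1, Fabp1, against 9.26% of all genes. The arrays of the genotypes did not overlap for 2 genes, Fabp1 and Slc27a2, against 6.80% of all genes. Slc27a2, a transport protein that also activates very long fatty acids, was at 9.89, 10.05, 9.91 and 10.19 in sham fl/fl and 9.80, 9.73, 9.84 and 9.79 in sham PparaΔHep. Its difference was small, at -0.22 ± 0.16 (limma adjusted p = 0.705). The median difference of the 10 genes was -0.09, beside -0.02 over all genes.

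After PHx, 0 of the 10 genes passed between genotypes by limma, against 0.143% of all genes, all of them lower in PparaΔHep. At an unadjusted p below 0.05 the count was 5 of 10, against 7.47% of all genes. These were Cd36, Slc27a2, Slc27a4, Fabp1 and Fabp2, all lower in PparaΔHep, a direction in which 3.36% of all genes reached that p. For 0 of the 10 genes did the arrays of the genotypes not overlap, against 3.73% of all genes. The median difference of the 10 genes was -0.33, beside 0.01 over all genes. Because the 10 genes were chosen with earlier results of these data known, these figures do not test them as a set. The difference of Fabp2 was -0.72 ± 0.25 (limma adjusted p = 0.496), of Cd36 -0.61 ± 0.25 (adjusted p = 0.597), of Slc27a2 -0.51 ± 0.16 (adjusted p = 0.393) and of Slc27a4 -0.25 ± 0.07 (adjusted p = 0.360). That of Cd36 ran from -0.77 to -0.33 when 1 array was left out, the smallest without PHx fl/fl array 1. Over both operations 0 of the 10 genes passed by limma, against 0.219% of all genes, and 4 had an unadjusted p below 0.05, against 5.83% of all genes. Those 4 were Fabp1, Slc27a2 at -0.36 ± 0.11 (adjusted p = 0.462), Slc27a1 at -0.08 ± 0.03 (adjusted p = 0.720) and Fabp2 at -0.41 ± 0.18 (adjusted p = 0.812).

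**Figure D2:**
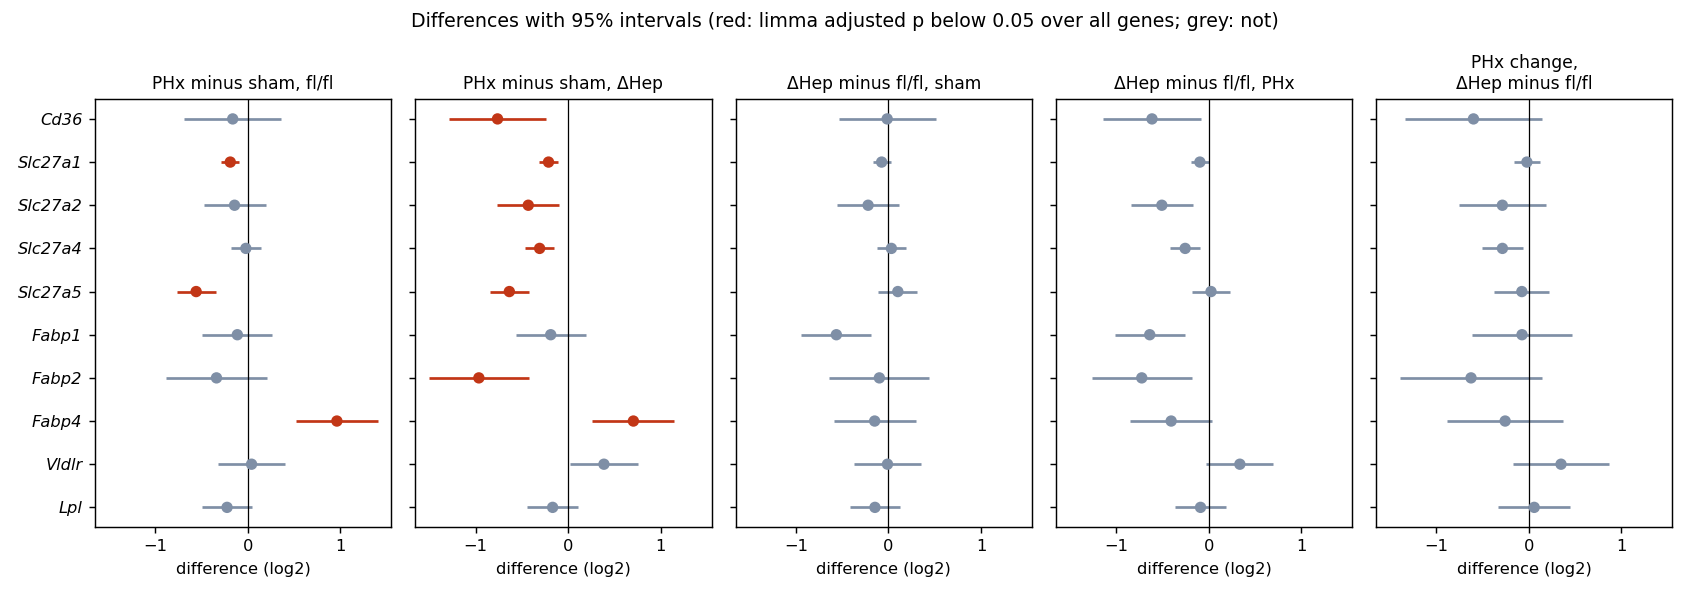
Difference of each gene in 5 comparisons (log2, horizontal axis) with its 95% interval from limma, red where the adjusted p over all genes is below 0.05. In the genotype panels every point is grey, and after PHx the intervals of Cd36, Slc27a2, Slc27a4, Fabp1 and Fabp2 lie below 0.

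The operation comparison asks how uptake and binding genes change in the regrowing liver. In fl/fl livers 3 of the 10 genes passed, 1 higher and 2 lower, against 32.7% of all genes (11.9% higher and 20.8% lower). Arrays of the operations did not overlap for 3 of the 10, against 32.0% of all genes. A count of 3 in 10 is close to that background. In PparaΔHep livers 7 of the 10 genes passed, 1 higher and 6 lower, and the count was 4 under cyclic loess scaling (1 higher and 3 lower) and 4, all lower, without sham PparaΔHep array 1. Of all genes 32.3% passed in that comparison, 14.8% as higher and 17.5% as lower. Under cyclic loess scaling 27% of all genes passed in it, 45.3% of those as higher. Without sham PparaΔHep array 1 the share was 28.4%, with 45.6% of those higher. Arrays did not overlap for 7 of the 10 genes in PparaΔHep, against 32.0% of all genes. The median change of the 10 genes was -0.15 in fl/fl and -0.26 in PparaΔHep, beside -0.04 and 0.01 over all genes. With low genes left out, the median over the 15981 genes kept was -0.13 in fl/fl and -0.09 in PparaΔHep. Of those genes 44.3% and 42.8% passed in either direction. Each of these comparisons uses its own sham arrays, while the genotype comparison after PHx shares the PHx arrays with both.

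Slc27a5, which joins coenzyme A to bile acids as well as carrying fatty acids, fell in both genotypes. Its levels were 8.29, 8.56, 8.40 and 8.75 in sham fl/fl and 7.74, 7.88, 8.07 and 8.08 in PHx fl/fl. In PparaΔHep they were 8.57, 8.54, 8.72 and 8.58 after sham and 8.05, 7.93, 7.83 and 8.07 after PHx. All PHx arrays lay below all sham arrays. The change was -0.56 ± 0.10 in fl/fl (limma adjusted p = 6.55e-04) and -0.64 ± 0.10 in PparaΔHep (adjusted p = 2.10e-04). The genotypes' changes differed by -0.08 ± 0.14, with a 95% interval from -0.37 to 0.22.

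Slc27a1, an insulin-responsive transport protein best known from muscle and fat, fell by a small and even amount. Its levels ran from 3.48 to 3.66 in sham fl/fl, 3.45 to 3.51 in sham PparaΔHep, 3.32 to 3.43 in PHx fl/fl and 3.22 to 3.32 in PHx PparaΔHep. Sham and PHx arrays did not overlap in either genotype. The change was -0.19 ± 0.05 in fl/fl (limma adjusted p = 0.00597) and -0.21 ± 0.05 in PparaΔHep (adjusted p = 0.00277). These levels lay under the 95th percentile of the negative control probe sets on all 16 arrays. Over the scalings, models, filters and probe set rules tried, the change ran from -0.30 to -0.12 in fl/fl (limma adjusted p up to 0.0418). In PparaΔHep it ran from -0.36 to -0.20 (adjusted p up to 0.0103). The antigenomic background median was also lower on PHx arrays, at 1.01 against 1.24, while the negative control median was higher, at 2.02 against 1.94. The part of such shifts in the fall of this dim gene was not tested.

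Fabp4, the binding protein of adipocytes, also made by macrophages and capillary endothelium, was the gene of the 10 that rose. In fl/fl its levels were 3.48, 3.18, 3.46 and 3.39 after sham and 4.68, 4.63, 4.12 and 3.93 after PHx. In PparaΔHep they were 2.97, 3.38, 3.24 and 3.32 after sham and 3.46, 3.69, 4.02 and 4.56 after PHx. Every PHx array was above every sham array of its genotype. It rose 1.95-fold in fl/fl, by 0.96 ± 0.21 (limma adjusted p = 0.00298), and 1.63-fold in PparaΔHep, by 0.70 ± 0.21 (adjusted p = 0.0176). In PparaΔHep the call was lost without sham array 1 (adjusted p = 0.0539) or without PHx array 4, which left a change of 0.50 (adjusted p = 0.0551). The genotypes' changes differed by -0.26 ± 0.29 (95% interval -0.88 to 0.37).

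Markers of the cell types that make Fabp4 did not all move with it. Of the adipocyte markers 0 of 5 passed in either genotype, and their mean level was 1.83 to 2.08 over all 4 groups, near the negative control median of 1.81 to 2.12. Of the sinusoidal endothelial markers, 6 of 8 were lower after PHx in each genotype and 1, Lyve1, was higher. Their mean level was 5.55 to 5.66 in sham fl/fl, 5.47 to 5.61 in sham PparaΔHep, 5.15 to 5.34 in PHx fl/fl and 4.97 to 5.21 in PHx PparaΔHep. Vascular endothelial markers passed in 0 of 5 cases in fl/fl and in 1 of 5, lower, in PparaΔHep. Kupffer cell and macrophage markers were lower in 3 of 8 cases in fl/fl and 6 of 8 in PparaΔHep, with mean levels of 5.02 to 5.71 on sham arrays and 4.63 to 5.22 on PHx arrays. Monocyte and neutrophil markers were higher in 1 of 6 cases in each genotype. These counts moved with the scaling: with array medians subtracted, 2 of 5 adipocyte markers were lower in fl/fl, vascular endothelial markers were lower in 1 of 5 cases in fl/fl and 3 of 5 in PparaΔHep, Kupffer cell and macrophage markers in 5 of 8 in fl/fl, and 1 of 6 monocyte and neutrophil markers was lower in fl/fl and 0 higher in either genotype. Under cyclic loess scaling 4 of 8 sinusoidal endothelial markers were lower in each genotype and 4 of 8 Kupffer cell and macrophage markers in PparaΔHep, 0 of 5 vascular endothelial markers passed in either genotype, and in fl/fl 2 monocyte and neutrophil markers were higher and 1 lower. Beside these counts, 20.8% of all genes passed as lower and 11.9% as higher in fl/fl, and 17.5% and 14.8% in PparaΔHep. With array medians subtracted 51.2% and 50.9% of all genes passed, 14.8% and 13.9% of those as higher. Under cyclic loess scaling 28.5% and 27% passed, 41.7% and 45.3% of those as higher. The part of these cells in the change of Fabp4 was not tested.

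Fabp2, the intestinal binding protein that liver also expresses, fell in PparaΔHep. Its levels there were 7.31, 7.74, 7.44 and 7.13 after sham and 6.48, 6.57, 6.19 and 6.53 after PHx, with no overlap. In fl/fl they were 7.24, 7.17, 7.60 and 8.0 after sham and 7.75, 6.49, 6.78 and 7.64 after PHx. PHx arrays 2 and 3 of fl/fl lay below all sham arrays, and arrays 1 and 4 lay within their range. Fabp2 fell 1.95-fold in PparaΔHep, by 0.96 ± 0.25 on the log2 scale (limma adjusted p = 0.00945), and its change in fl/fl was -0.34 ± 0.25 (adjusted p = 0.327). The difference between these changes, -0.63 ± 0.36, did not pass (adjusted p = 0.541). Of the intestinal epithelium markers 1 of 6 was lower in fl/fl and 0 of 6 passed in PparaΔHep, but under cyclic loess scaling 3 and 1 were lower, and with array medians subtracted 3 were lower in each genotype. Of all genes, 32.7% passed in fl/fl and 32.3% in PparaΔHep. These shares were 28.5% and 27% under cyclic loess scaling, and 51.2% and 50.9% with array medians subtracted.

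Cd36, the membrane translocase, had a like pattern. In PparaΔHep its levels were 4.69, 4.78, 4.84 and 4.40 after sham and 3.93, 4.0, 3.51 and 4.22 after PHx, so the groups did not overlap. In fl/fl they were 4.50, 4.49, 4.67 and 5.11 after sham and 5.37, 4.10, 4.04 and 4.59 after PHx. PHx array 1 of fl/fl was the highest of all 16 arrays, while arrays 2 and 3 lay below every sham array. Cd36 fell 1.70-fold in PparaΔHep, by 0.76 ± 0.25 on the log2 scale (limma adjusted p = 0.0277), and its change in fl/fl was -0.16 ± 0.25 (adjusted p = 0.643). The PparaΔHep call was lost under cyclic loess scaling (adjusted p = 0.0680). It was also lost without sham PparaΔHep array 1 (0.0541), 2 (0.0628) or 3 (0.0713) or PHx PparaΔHep array 3 (0.0849), all limma adjusted p-values. The difference between the genotypes' changes was -0.60 ± 0.35 (95% interval -1.34 to 0.14, limma adjusted p = 0.546), and -0.32 without PHx fl/fl array 1.

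Slc27a2 fell in PparaΔHep, from the sham levels given above to 9.52, 9.17, 9.04 and 9.70, a change of -0.43 ± 0.16 (limma adjusted p = 0.0475). After PHx in fl/fl its levels were 10.09, 9.48, 9.67 and 10.22, a change of -0.14 ± 0.16 (adjusted p = 0.511). In fl/fl, PHx array 1 lay within the sham range, array 4 just above it and arrays 2 and 3 below it, while all PparaΔHep PHx arrays lay below their sham arrays. The PparaΔHep call was near the threshold: it was lost under cyclic loess scaling (adjusted p = 0.0835) and in 10 of the 16 fits that left out 1 array. Those were the fits without any of the 8 sham arrays or without PHx PparaΔHep arrays 2 or 3, with adjusted p up to 0.144.

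Slc27a4, a widely expressed transport protein, was at 4.86, 4.94, 4.92 and 4.88 in sham fl/fl and 5.0, 4.87, 4.72 and 4.93 in PHx fl/fl. In PparaΔHep it was at 4.82, 4.93, 5.04 and 4.94 after sham and 4.55, 4.67, 4.81 and 4.47 after PHx. The operations overlapped in fl/fl and did not in PparaΔHep, where the highest PHx array lay just under the lowest sham array. In PparaΔHep it fell by 0.31 ± 0.07 (limma adjusted p = 0.00564), and its change in fl/fl was -0.02 ± 0.07 (adjusted p = 0.848). Under cyclic loess scaling the PparaΔHep change was -0.17 and did not pass (adjusted p = 0.0753). The difference between the genotypes' changes was -0.29 ± 0.11 (95% interval -0.51 to -0.06, unadjusted p = 0.0161, limma adjusted p = 0.364).

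For that difference 0 of the 10 genes, and 0% of all genes, passed by limma, and 1 of the 10, Slc27a4, had an unadjusted p below 0.05, against 11.3% of all genes. Passing in PparaΔHep and not in fl/fl is therefore not shown to be a difference between the genotypes for Cd36, Slc27a2, Slc27a4 or Fabp2.

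**Figure D3:**
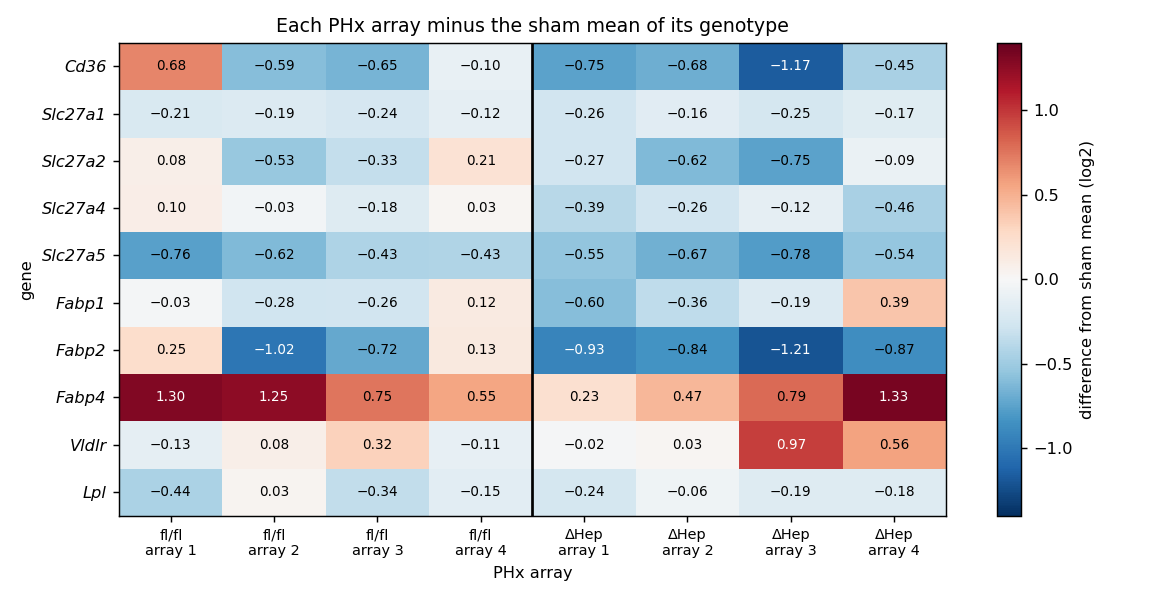
Each PHx array minus the sham mean of its genotype (log2, colour and printed value), genes in rows and arrays in columns. In fl/fl, Cd36, Slc27a2 and Fabp2 are below the sham mean by 0.33 or more on arrays 2 and 3 and from -0.10 to 0.68 on arrays 1 and 4, whereas all PparaΔHep arrays are below it.

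The fl/fl arrays after PHx thus differed among themselves for several of the genes. Array 1 stood 0.68 above the sham mean for Cd36, 0.08 for Slc27a2 and 0.25 for Fabp2, and array 4 stood at -0.10, 0.21 and 0.13. Arrays 2 and 3 stood at -0.59 and -0.65 for Cd36, -0.53 and -0.33 for Slc27a2 and -1.02 and -0.72 for Fabp2. For Fabp1 the same arrays were the lower ones, at -0.28 and -0.26, beside -0.03 and 0.12 for arrays 1 and 4. The SD of Cd36 over the 4 fl/fl arrays was 0.29 after sham and 0.62 after PHx. Slc27a5 and Slc27a1 did not share this split, all 4 fl/fl arrays lying below the sham mean for both. PHx PparaΔHep arrays spread as well. Their SD was larger than that of PHx fl/fl for Fabp1 (0.42 against 0.20), Fabp4 (0.48 against 0.37) and Vldlr (0.47 against 0.21). It was smaller for Cd36 (0.30 against 0.62), Fabp2 (0.17 against 0.62) and Slc27a2 (0.31 against 0.34).

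Lpl, which frees fatty acids from lipoproteins and is made mainly by cells other than adult hepatocytes, did not pass in any comparison. Its levels ran from 3.23 to 3.71 in sham fl/fl, 3.07 to 3.61 in sham PparaΔHep, 3.09 to 3.56 in PHx fl/fl and 3.14 to 3.32 in PHx PparaΔHep, and the groups overlapped. The change was -0.22 ± 0.13 in fl/fl (limma adjusted p = 0.195) and -0.17 ± 0.13 in PparaΔHep (adjusted p = 0.344). With array medians subtracted it was -0.33 in fl/fl and passed (adjusted p = 0.0461).

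Vldlr, a receptor that takes up triglyceride-rich lipoproteins, was near the level of the negative controls, above their median on 14 of 16 arrays. Its levels were 2.00 to 2.18 in sham fl/fl, 2.01 to 2.18 in sham PparaΔHep and 1.98 to 2.42 in PHx fl/fl. In PHx PparaΔHep they were 2.08, 2.13, 3.07 and 2.66, arrays 3 and 4 being above all others. The change was 0.04 ± 0.17 in fl/fl (limma adjusted p = 0.881) and 0.39 ± 0.17 in PparaΔHep (adjusted p = 0.0973), and neither passed. Without PHx PparaΔHep array 1 or 2 the latter passed (adjusted p = 0.0258 and 0.0361).

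Slc27a2, Slc27a5, Fabp1 and Fabp2 were above the 95th percentile of the negative control probe sets on all 16 arrays. Slc27a4 was above it on 5 arrays and Cd36 on 2, and Slc27a1, Fabp4, Vldlr and Lpl on 0. The calls on the dimmer genes therefore rest on levels within the range of the negative controls.

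Genes with the most similar pattern were sought among 19045 other protein-coding genes, by the root mean square difference over the 16 arrays after centring each gene on its mean. Cd36 and Fabp2 were each the other's nearest gene, at 0.21. Next to Cd36 came Hadh, a mitochondrial fatty acid oxidation enzyme, and Rdh16, both at 0.23, and next to Fabp2 Hadh and Acat1, both at 0.23. The nearest to Slc27a2 were Ei24, Slc25a13 and Acadm, an acyl-CoA dehydrogenase of fat oxidation, at 0.13 to 0.14, and the nearest to Slc27a5 were Apeh, Proc and Cyp2j6. Slc27a4 lay nearest to Hdac2, Thada and Ppp5c, Slc27a1 to Ctdspl, Snf8 and Ntpcr, and Fabp4 to Syt12, Ralgapa2 and Tmed5. The nearest gene was at 0.09 for Slc27a5, 0.08 for Slc27a4, 0.05 for Slc27a1 and 0.24 for Fabp4. The root mean square of each gene's own centred values was 0.33, 0.15, 0.12 and 0.52 for these. For Cd36, Fabp2 and Slc27a2 it was 0.46, 0.54 and 0.32, so the nearest genes shared only part of each pattern.

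Related genes were counted from lists of the same pathway. Beside them, 20.8% of all genes passed as lower and 11.9% as higher in fl/fl, and 17.5% and 14.8% in PparaΔHep. With low genes left out, 44.3% in fl/fl and 42.8% in PparaΔHep passed in either direction, 23.6% and 28.1% of those as higher. Of 11 other fatty acid transporters and binding proteins measured, 5 were lower after PHx in each genotype and none was higher, with a median change of -0.27 in fl/fl and -0.22 in PparaΔHep. Under cyclic loess scaling 4 and 3 were lower, and with array medians subtracted 7 and 7. Of all genes, 28.5% and 27% passed under cyclic loess scaling, 41.7% and 45.3% of those as higher. With array medians subtracted 51.2% and 50.9% of all genes passed, 14.8% and 13.9% of those as higher. Fabp5, the epidermal type binding protein, fell in PparaΔHep by 1.36 ± 0.24 (limma adjusted p = 6.38e-04), and its change in fl/fl was -0.51 ± 0.24 (adjusted p = 0.120), which passed without PHx fl/fl array 1 (adjusted p = 0.0205) and with array medians subtracted (adjusted p = 0.0487). The difference between those changes, -0.85 ± 0.34, did not pass. Cav1, the coat protein of caveolae, fell by 0.58 ± 0.15 in fl/fl and 0.57 ± 0.15 in PparaΔHep (limma adjusted p = 0.00848 and 0.00875). The sterol carrier protein Scp2 fell by 0.34 ± 0.10 and 0.55 ± 0.10 (limma adjusted p = 0.0196 and 9.14e-04), the fl/fl call being lost without PHx fl/fl array 3 (adjusted p = 0.0548). Fabp3, the heart type binding protein, fell in fl/fl by 0.49 ± 0.13 (limma adjusted p = 0.00946) and was at -0.06 ± 0.13 in PparaΔHep.

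Among lipases and their regulators, 3 of 8 measured genes rose and 3 fell in each genotype, with a median of 0.08 in fl/fl and -0.07 in PparaΔHep. With array medians subtracted 0 rose and 4 fell in PparaΔHep, where 50.9% of all genes passed, 13.9% of those as higher. Angptl8, an insulin-induced inhibitor of lipoprotein lipase, fell by 2.26 ± 0.45 in fl/fl and 2.17 ± 0.45 in PparaΔHep (limma adjusted p = 0.00159 and 0.00195). Angptl4, a fasting-induced inhibitor of the same enzyme, rose by 0.97 ± 0.25 and 0.76 ± 0.25 (limma adjusted p = 0.00821 and 0.0292). Its PparaΔHep call was lost without PHx PparaΔHep array 3 (0.0778) or 4 (0.0703) or without sham PparaΔHep array 1 (0.0599), 2 (0.0730) or 3 (0.0688), and with array medians subtracted (0.0524), all limma adjusted p-values. Endothelial lipase, Lipg, rose by 0.77 ± 0.18 in fl/fl (limma adjusted p = 0.00501) and was at 0.00 ± 0.18 in PparaΔHep, and the difference of -0.76 ± 0.25 did not pass. Lmf1, which matures lipases, fell by 0.49 ± 0.12 and 0.63 ± 0.12 (limma adjusted p = 0.00668 and 0.00122).

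Of 5 other lipoprotein receptors, 2 fell and 1 rose in each genotype, with medians of -0.34 and -0.42. With array medians subtracted 4 fell in fl/fl and 3 in PparaΔHep. In that setting 51.2% and 50.9% of all genes passed, 14.8% and 13.9% of those as higher. Lrp1, a remnant receptor, fell by 0.67 ± 0.12 in fl/fl and 0.83 ± 0.12 in PparaΔHep (limma adjusted p = 7.30e-04 and 1.05e-04). Lsr, the lipolysis-stimulated receptor, fell by 0.53 ± 0.14 and 0.77 ± 0.14 (limma adjusted p = 0.00858 and 5.94e-04). Sdc1, a heparan sulfate proteoglycan that also binds remnants, rose by 0.80 ± 0.17 and 0.65 ± 0.17 (limma adjusted p = 0.00294 and 0.00996).

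Of 10 transcription factors known to control uptake genes, 1 fell in fl/fl and 3 fell in PparaΔHep, with medians of -0.23 and -0.28. Under cyclic loess scaling 0 passed in fl/fl, and 2 fell and 1 rose in PparaΔHep, and with array medians subtracted 2 and 5 fell. Of all genes, 28.5% and 27% passed under cyclic loess scaling, and 51.2% and 50.9% with array medians subtracted. Rxra, which encodes a retinoid X receptor, fell in PparaΔHep by 0.67 ± 0.15 (limma adjusted p = 0.00398) and was at -0.21 ± 0.15 in fl/fl. Nr1h3, which encodes the sterol receptor LXRα, fell by 0.71 ± 0.16 in PparaΔHep (limma adjusted p = 0.00320). In fl/fl it fell by 0.46 ± 0.16 (adjusted p = 0.0345), a call lost under cyclic loess scaling (0.128) and with only the groups compared fitted (0.0596). That call was also lost when arrays 1 (0.0646), 3 (0.0693) or 4 (0.0753) of sham fl/fl were left out, or arrays 2 (0.0630) or 3 (0.0924) of PHx fl/fl, all limma adjusted p-values. Ppara fell in PparaΔHep by 0.98 ± 0.33 (limma adjusted p = 0.0350), a call lost under cyclic loess scaling (0.0800) and without sham array 1 (0.0635), 2 (0.0754) or 3 (0.0794) or PHx array 2 (0.0804), 3 (0.0664) or 4 (0.113) of that genotype. Between genotypes 0 of these 34 related genes passed by limma after sham, after PHx or over both operations, and 4, 7 and 6 of them had an unadjusted p below 0.05, beside 9.26%, 7.47% and 5.83% of all genes. For the difference of the PHx changes 0 passed and 6 had such a p, beside 11.3% of all genes. Got2 encodes a mitochondrial aminotransferase also known as a fatty acid binding protein of the plasma membrane. It came nearest after PHx, at -0.34 (limma adjusted p = 0.0723), and passed when only protein-coding genes were tested (adjusted p = 0.0472). Over both operations its difference was -0.24. That difference passed among protein-coding genes (limma adjusted p = 0.0434), with array weights (0.0288) and without PHx PparaΔHep array 1 (0.0452).

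**Figure D4:**
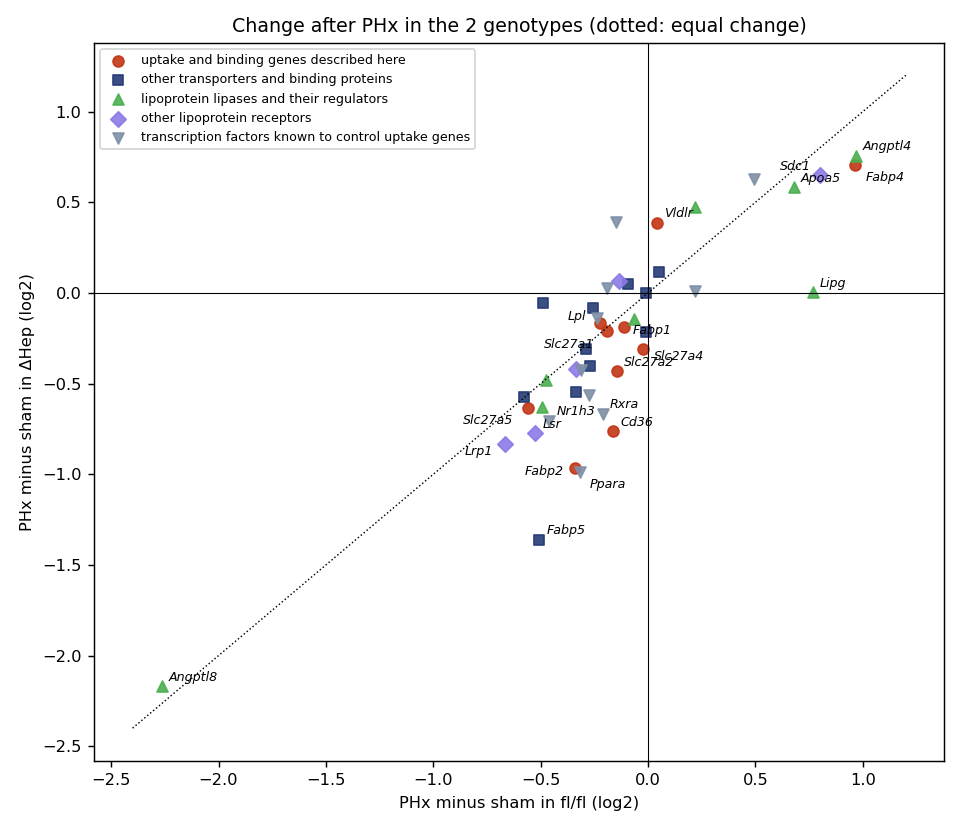
Change after PHx in fl/fl (horizontal axis, log2) against the change in PparaΔHep (vertical axis, log2) for the 10 genes and the 4 groups of related genes, with a dotted line of equal change. Fabp4, Angptl4 and Sdc1 lie high on both axes, Angptl8 lies lowest on both, and Cd36, Fabp2, Fabp5 and Lipg lie below the line, a gap for which no gene passed.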

How the data were processed

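Mouse liver RNA was hybridised to Affymetrix arrays, 1 per sample. The deposited log2 values were made by the authors with RMA, per the submitters' processing notes; the sources used here do not give its software, version or genome build. Groups came from the labels, 16 arrays in 4 groups of 4, and array numbers follow sample order and pair nothing. Of 72688 probe sets, 30604 have 1 gene symbol in the platform annotation, 2146 have several and 39938 none, and 827 symbols were updated through a RefSeq gene table. Genes with several probe sets (355) kept the one with the highest mean, which left 30142 genes.

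Group means were fitted to all 16 arrays with limma 3.58.1 in R 4.3.3, with eBayes and Benjamini-Hochberg adjustment over all genes. The script was tested on simulated data. The number of arrays limits the precision. All 10 genes are named, with up to 6 genes of each related list that passed somewhere, taken by size of change, and the 3 nearest protein-coding genes of each that passed. Some genes of the lists are not reported here. The genes and lists were chosen with earlier results of these data known. Alternatives were other scalings, models, filters and probe set rules, and each array left out.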

Additional observations from a re-analysis of the deposited data

How the results depend on the processing

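No paired analysis was possible because the labels give no replicate numbers that the groups share and no batch. Of the 10 genes, the count that passed after PHx in PparaΔHep was 4 under cyclic loess (Cd36, Slc27a2 and Slc27a4 lost) and 4 to 8 when 1 array was left out, 4 without sham array 1. It stayed at 3 in fl/fl when any array was left out. Beside these counts, 27% of all genes passed in PparaΔHep under cyclic loess, and 25.6% to 33.5% when 1 array was left out. In fl/fl 25.6% to 33.8% of all genes passed when 1 array was left out. Between genotypes the count of the 10 genes was 0 to 1 after PHx and 0 to 1 over both operations when 1 array was left out, and 1 over both operations with array weights, Fabp1 in each case. Signs turned only where neither value passed. The PHx change in fl/fl of Slc27a4 was 0.096 under cyclic loess and 0.00489 with array weights, and that of Vldlr was -0.067 with array medians subtracted and -0.00675 with weights. The sham genotype difference of Cd36 was 0.0115 with medians subtracted, and that of Vldlr was 0.0325 under cyclic loess and 0.0149 with medians subtracted. The difference of the PHx changes of Lpl was -0.00382 under cyclic loess. With 1 array left out, the PHx change in fl/fl ran from -0.062 to 0.031 for Slc27a4 and -0.053 to 0.096 for Vldlr. The genotype difference after sham ran from -0.079 to 0.13 for Cd36, -0.00396 to 0.071 for Slc27a4, -0.21 to 0.066 for Fabp2 and -0.044 to 0.020 for Vldlr, and after PHx from -0.042 to 0.073 for Slc27a5. The difference of the PHx changes ran from -0.055 to 0.00194 for Slc27a1, -0.27 to 0.062 for Fabp1 and -0.048 to 0.16 for Lpl. The cause of these changes was not tested.

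Over all genes, subtracting array medians gave 15420 calls after PHx in fl/fl, 14.8% of them higher, against 9868 and 36.5%, and 15350 in PparaΔHep, 13.9% higher, against 9734 and 45.8%. It moved the median change of all genes to -0.15 and -0.14. Leaving out low genes gave 23.6% and 28.1% higher and dropped Vldlr, and protein-coding genes alone gave 34.0% higher in PparaΔHep. Between genotypes after sham, 4 calls became 38 with only the groups compared and 24 with array weights; after PHx, 43 became 0 with only the groups compared; over both operations, 66 became 100 with array weights. Leaving out 1 array gave 1 to 6 calls between genotypes after sham, 14 to 127 after PHx (fewest without PHx PparaΔHep array 2, most without PHx fl/fl array 3) and 35 to 120 over both operations (fewest without sham PparaΔHep array 1, most without PHx fl/fl array 3).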
